A study of Mus musculus with 47 samples.

Results

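The genes described here belong to cholesterol and lipid synthesis. They are 34 mouse gene symbols, listed by name from what is known of the pathway and not by any value measured in these cells. Of these, 33 were found in the deposited tables, which hold 38347 genes each for the Foxa2 arm and 37514 genes for the Nkx2.2 arm, while Mvd was not analysed here. By role, the 33 genes are 15 enzymes of sterol synthesis (Acat2, Hmgcs1, Mvk, Pmvk, Idi1, Fdps, Fdft1, Sqle, Lss, Cyp51, Tm7sf2, Nsdhl, Hsd17b7, Ebp and Dhcr7), 5 regulators (Srebf1, Srebf2, Insig1, Insig2 and Scap), 3 genes of sterol transport and efflux (Stard4, Abca1 and Abcg1) and 10 genes of fatty acid and lipid synthesis (Fasn, Acaca, Acly, Scd1, Scd2, Elovl5, Elovl6, Fads1, Fads2 and Lpin1).

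The study followed 47 RNA sequencing libraries of mouse embryonic stem (ES) cells that were turned into neural progenitors as a monolayer in N2B27, a serum-free neural medium. In the first arm, Foxa2-/- cells (line label C57BL/6) and WT cells (line label E14.5) were collected as untreated, undifferentiated ES cells and at days 1, 2, 3.5, 4.5, 5.5, 6.5 and 7.5, with retinoic acid (RA) given until day 3.5 and SAG1.3, an activator of Sonic hedgehog signalling, until collection. This arm holds 3 Foxa2-/- libraries per time up to day 5.5 and 2 at days 6.5 and 7.5, against 2 WT libraries per time up to day 2 and 3 WT libraries per time from day 3.5. In the second arm, Nkx2.2-/- cells (C57BL/6) and WT cells (E14.5) received RA and SAG1.3 until day 3.5 only and gave 1 library each at days 3.5 and 5.5. The days of this arm follow the titles; for both libraries titled day 5.5 the stage label reads 3.5 days. Foxa2 encodes a forkhead transcription factor and Nkx2-2 a homeodomain transcription factor, both used in the ventral neural tube. From day 3.5 on, the RNA came from cells sorted on magnetic columns for prominin, a surface protein of neural progenitors. Each mutant carries another line label than its WT cells, so line and genotype cannot be told apart in any comparison between genotypes. The labels do not say whether the libraries of a group came from separate cultures, so p-values measure the spread between these libraries, which may be technical. In such bulk RNA, fewer cells of a type and less RNA per cell cannot be told apart.

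Cholesterol is made from acetyl-CoA by way of mevalonate, the isoprenoid phosphates, squalene and lanosterol. When the endoplasmic reticulum is short of sterol, SCAP carries the SREBP transcription factors (encoded by Srebf1 and Srebf2) to the Golgi, where they are cut free and switch on genes of sterol and fatty acid synthesis; the INSIG proteins hold them back when sterol is plentiful. Oxysterols act in the opposite sense through the LXR receptors, which raise the exporters Abca1 and Abcg1. Growing neural cells make their own cholesterol, and cholesterol is attached to the Sonic hedgehog protein and acts on Smoothened, the receptor that SAG compounds activate.

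Promoter sequences could be matched for 25 of the 33 genes in RefSeq (GRCm38.p6), from 250 bases before to 50 bases after the annotated start. The sequences of 4 genes that rose at day 1 in Foxa2-/- cells are printed as examples, all of them with CCAAT boxes. Hmgcs1 also holds the sterol regulatory element core, while Mvk, Fasn and Nsdhl hold only CCAAT boxes in capitals. They do not stand for the whole range of sequences. Acat2, Fads2, Scap, Acaca and Lpin1 also rose then and held no CCAAT box in their windows. Each line gives the 150 bases before the start, 5′ to 3′ on the strand of the gene, and capitals mark the sterol element core or a CCAAT box read on either strand.
Hmgcs1, chr13:119690201-119690350, plus strand: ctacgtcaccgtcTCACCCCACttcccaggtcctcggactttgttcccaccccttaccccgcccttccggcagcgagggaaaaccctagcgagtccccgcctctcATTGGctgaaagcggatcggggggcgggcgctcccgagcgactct
Mvk, chr5:114444119-114444268, plus strand: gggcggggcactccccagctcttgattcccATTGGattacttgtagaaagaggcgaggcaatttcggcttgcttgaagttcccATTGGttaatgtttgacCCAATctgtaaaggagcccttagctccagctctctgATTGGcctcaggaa
Fasn, chr11:120824548-120824697, minus strand: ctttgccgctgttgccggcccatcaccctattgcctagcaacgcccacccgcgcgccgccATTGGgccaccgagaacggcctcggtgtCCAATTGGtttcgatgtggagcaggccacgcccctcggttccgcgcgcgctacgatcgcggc
Nsdhl, chrX:72918371-72918520, plus strand: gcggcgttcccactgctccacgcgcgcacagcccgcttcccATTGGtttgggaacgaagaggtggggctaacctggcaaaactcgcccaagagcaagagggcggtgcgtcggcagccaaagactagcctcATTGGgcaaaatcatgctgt
The core TCACNCCAC, read on both strands, was found in the 300-base window of 1 of the 25 genes, Hmgcs1, where it lies upstream of the annotated start; 1.44% of all 27025 genes of the table hold it. The shorter core CACCCCA, which overlaps it in Hmgcs1, was in 4 of the 25 genes (16.0%, against 8.66% of all genes). A CCAAT box, the site of the factor NF-Y, was in 18 of the 25 (72.0%, against 41.1% of all genes), and the GC box GGGCGG, the site of Sp1, in 19 of the 25 (76.0%, against 38.2%). The E-box CACGTG was in 6 of the 25 (24.0%, against 8.09%). The forkhead core TGTTTAC was in 1 of the 25, Elovl6, against 4.05% of all genes. These are matches of letters in short windows and were not tested as binding sites.

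Levels are in FPKM, fragments scaled to transcript length and to library size, as deposited. Foxa2 itself was at 0.266 FPKM or less in every Foxa2-/- library, against group means of 0.630 FPKM in ES cells, 3.59 FPKM at day 1, 33.7 FPKM at day 2 and 46.0 to 80.1 FPKM from day 3.5 in WT cells. Nkx2-2 was at 1.34 and 3.38 FPKM in Nkx2.2-/- cells of days 3.5 and 5.5, against 19.6 and 28.7 FPKM in WT cells. The steps between low FPKM values gave an estimate of depth. Libraries of ES cells to day 2 held 33500000 to 39300000 fragments, later ones 13500000 to 31200000, and those of the Nkx2.2 arm 9800000 to 12100000. Markers of neural progenitors summed to 1322 to 1388 FPKM in Foxa2-/- cells of day 7.5 and 767 to 1036 FPKM in WT cells, so the labelled cell type was present in both. Foxa2-/- ES replicate 3 carries the source name of neural progenitors, while its title and stage call it undifferentiated, and markers of ES cells summed to at least 989 FPKM in each Foxa2-/- ES library. Markers of hepatocytes and adipocytes, cells known for high lipid synthesis, never summed to more than 2.41 FPKM, and Plin1 was under 0.1 FPKM in every library.

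Several libraries stood apart from their group, and results that rest on them are given with and without them. The WT library of day 5.5 replicate 1 had far lower levels of most sterol and fatty acid genes than replicates 2 and 3. In Foxa2-/- cells of day 2, replicates 1 and 3 differed from replicate 2 with the GC content of transcripts: values deviated from the gene means by 0.67 and 0.35 (log2) per 10 percentage points of GC in replicates 1 and 3, and by 0.06 in replicate 2. Slopes of this kind also separated the Foxa2-/- libraries of day 6.5 (-0.39 and 0.32) and those of day 7.5 (-0.17 and 0.31). They differed as well between Foxa2-/- ES cells (-0.11, -0.57 and -0.28) and Foxa2-/- cells of day 1 (0.08, 0.19 and 0.24), which are compared below. The most GC-rich transcripts of the 33 genes are those of Scap, Srebf1, Srebf2, Fasn, Pmvk and Mvk, and the part of GC content in their values was not tested gene by gene. Fasn was at 18.0 and 86.6 FPKM in the 2 Foxa2-/- libraries of day 6.5 and Scap at 15.0 and 47.7 FPKM.

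The first result concerns the exit from the ES cell state, which came with higher levels of most sterol and fatty acid genes in both genotypes. A gene was called where limma's moderated test on log2(FPKM + 1), fitted over all libraries of a table, gave a Benjamini-Hochberg adjusted p under 0.05 over all genes. At day 2 against ES cells, 21 of the 33 genes rose and 3 fell in Foxa2-/- cells, where 54.6% of all 16465 tested genes were called, 31.4% upward and 23.2% downward. In WT cells 23 rose and 0 fell, with 33.9% of all genes called, 19.1% upward and 14.8% downward by the same limma test; 27 of the 33 had an unadjusted p under 0.05. The median log2 change of the 33 genes was 0.91 in Foxa2-/- cells and 0.86 in WT cells, beside 0.136 and 0.105 over all genes. ES cells were untreated, so time in culture, medium and treatment cannot be told apart in these comparisons.

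The rise was already present at day 1, a comparison that was added after the values had been seen. At day 1 against ES cells, 30 of the 33 genes rose and 1, Abca1, fell in Foxa2-/- cells (44.4% of all genes called, 32.2% upward and 12.2% downward). In WT cells 23 rose and 0 fell by limma (16.8% of all genes called, 10.8% upward and 6.01% downward), and 27 of the 33 had an unadjusted p under 0.05. These counts include Abcg1, which passed the filter on low values through day 1 libraries alone; of the other 32 genes, 29 rose in Foxa2-/- cells and 22 in WT cells. All 15 sterol enzymes rose in Foxa2-/- cells and 12 of the 15 in WT cells. The median log2 change of the 33 genes was 1.40 in Foxa2-/- cells and 1.095 in WT cells, beside 0.265 and 0.083 over all genes. The WT counts depended on the libraries used, and they were lower without WT ES replicate 2, which leaves 1 library in that group. In a fit of the WT ES and day 1 libraries alone, Scd1 was the 1 gene of the 33 called at day 1. In that fit few genes of any kind were called, 0.0668% of all genes. Over the same days the markers of ES cells summed to 989 to 1612, 225 to 252 and 12.9 to 20.8 FPKM in Foxa2-/- cells of ES, day 1 and day 2, against 1120 to 1619, 145 to 293 and 12.7 to 17.0 FPKM in WT cells; their part in the result was not tested. Markers of mesoderm and smooth muscle, which include Actc1 and Acta2, moved in opposite directions at day 1, to 293 to 314 FPKM in Foxa2-/- cells, against 102 to 142 FPKM in their ES cells, and to 23.7 to 39.7 FPKM in WT cells, against 79.0 to 108 FPKM in their ES cells.

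**Figure D1:**
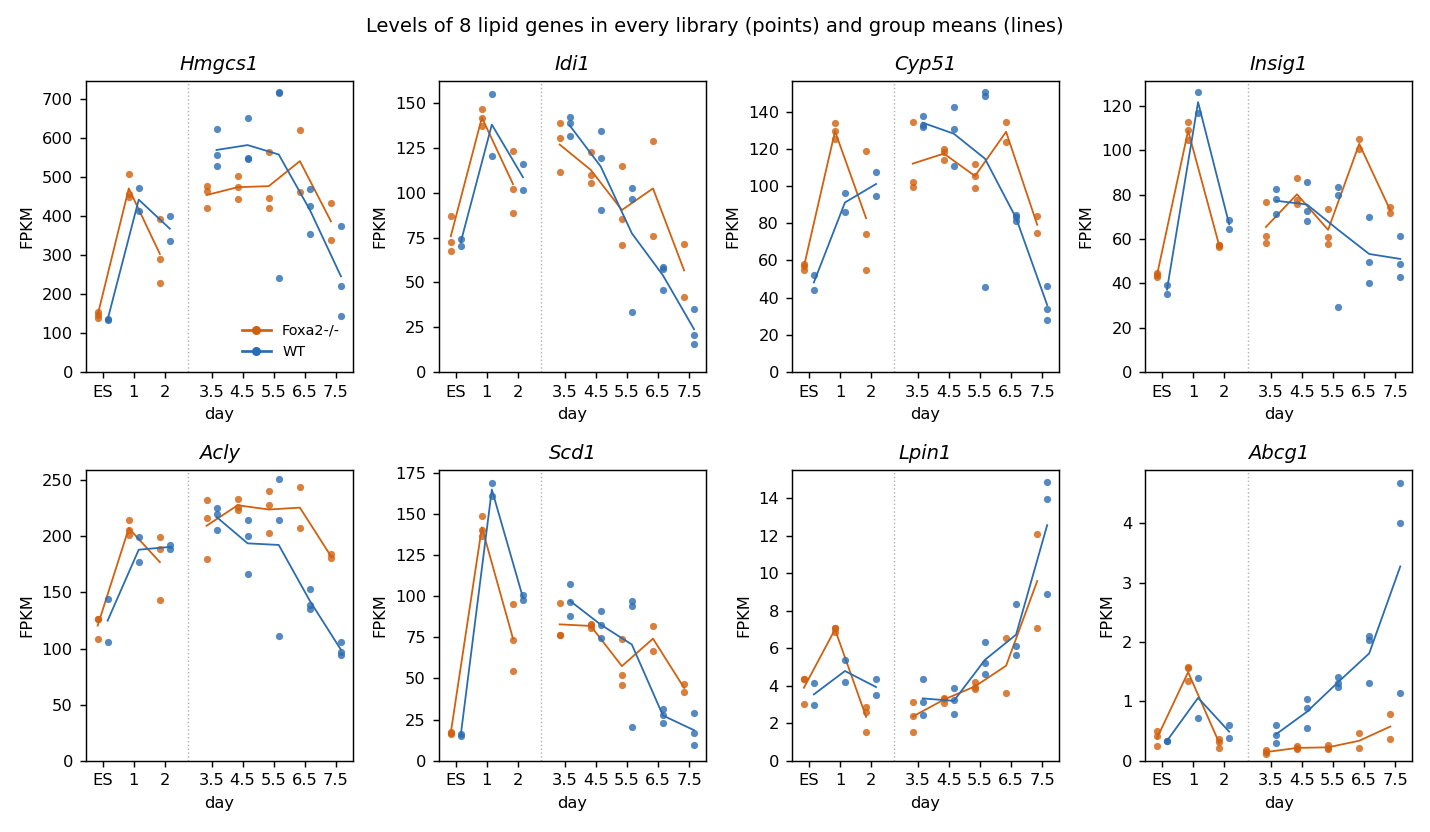
Levels (y axis, FPKM, from 0) of 8 genes against day of culture (x axis), with 1 point per library, lines through group means, Foxa2-/- in orange and WT in blue; the dotted line separates the 2 tables, which were normalised separately. Hmgcs1 and Scd1 were lower in every ES library than in every library of days 1 and 2, and from day 5.5 on Abcg1 was below 1 FPKM in each Foxa2-/- library and above it in each WT library.

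Among the sterol enzymes, Hmgcs1, which makes HMG-CoA at the entry of the mevalonate pathway, had the highest level. In ES cells, day 1 and day 2 it was at 138.8, 154 and 147, then 507.8, 457 and 449, then 228, 392 and 289 FPKM in Foxa2-/- libraries, and at 136.7 and 133.4, then 471 and 414, then 399.6 and 336 FPKM in WT libraries. Every later library was above every ES library of its genotype, and the log2 change at day 1 was 1.68 (SE 0.17, adjusted p = 2.12e-05) in Foxa2-/- cells and 1.70 (SE 0.21, adjusted p = 0.000247) in WT cells. At day 2 the log2 change was 1.01 (SE 0.17, adjusted p = 0.000489) in Foxa2-/- cells and 1.43 (SE 0.21, adjusted p = 0.000273) in WT cells. The 3 Foxa2-/- libraries of day 2 spread far wider than those of day 1, and replicates 1 and 3 were the low ones.

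Of the next enzymes, mevalonate kinase (Mvk) showed the largest log2 change of the 33 genes in Foxa2-/- cells. It was at 9.62, 2.01 and 5.73 FPKM in ES cells, 66.8, 69.3 and 79.3 FPKM at day 1 and 107, 33.1 and 39.9 FPKM at day 2 in Foxa2-/- cells, and at 13.4 and 3.68, then 13.7 and 40.7, then 36.4 and 40.8 FPKM in WT cells. At day 1 the log2 change of Mvk was 3.60 (SE 0.59, adjusted p = 0.000586) in Foxa2-/- cells and 1.59 (SE 0.72, adjusted p = 0.167) in WT cells, where day 1 replicate 1 was level with the higher ES library. Phosphomevalonate kinase (Pmvk) was at 26.8, 9.39 and 18.3, then 92.8, 96.9 and 92.7, then 63.1, 31.6 and 47.3 FPKM in Foxa2-/- cells. WT cells had 32.3 and 17.6, then 32.3 and 64.1, then 40.2 and 38.0 FPKM. Its day 1 change was 2.42 (SE 0.38, adjusted p = 0.000436) in Foxa2-/- cells and 0.91 (SE 0.46, adjusted p = 0.226) in WT cells. Both transcripts are GC-rich, and the ES and day 1 libraries with the lowest Mvk values in WT cells, ES replicate 2 and day 1 replicate 1, had the GC slopes -0.46 and -0.46. In Foxa2-/- cells ES replicate 2 held the lowest values of both genes and had the slope -0.57.

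The enzymes after squalene rose as well. Lanosterol synthase (Lss), which closes the sterol rings, was at 36.3, 16.2 and 24.7, then 115, 99.7 and 111, then 68.4, 69.7 and 80.3 FPKM in Foxa2-/- cells. WT cells had 32.0 and 14.2, then 55.8 and 99.4, then 82.6 and 77.3 FPKM. All day 1 and day 2 libraries lay above the ES libraries, and the day 2 change was 1.53 (SE 0.32, adjusted p = 0.00217) in Foxa2-/- cells and 1.85 (SE 0.39, adjusted p = 0.00348) in WT cells. Tm7sf2, a sterol reductase, was at 9.94, 5.15 and 5.61, then 47.8, 55.6 and 54.1, then 45.9, 23.8 and 33.8 FPKM in Foxa2-/- cells. WT cells had 9.34 and 7.13, then 26.4 and 37.5, then 29.5 and 35.6 FPKM, again with no overlap with ES cells. Its day 2 change was 2.17 (SE 0.26, adjusted p = 4.45e-05) in Foxa2-/- cells and 1.86 (SE 0.32, adjusted p = 0.000941) in WT cells. Hsd17b7, which reduces a keto group of sterol intermediates, had the lowest mean level of the sterol enzymes at days 1 and 2, at 8.52, 7.25 and 9.34, then 26.3, 24.1 and 24.9, then 5.64, 19.4 and 8.68 FPKM in Foxa2-/- cells. WT cells had 7.90 and 7.54, then 17.8 and 18.8, then 20.1 and 18.4 FPKM. The day 2 values of Foxa2-/- cells straddle the ES range, and Hsd17b7 was called at day 2 in WT cells (log2 change 1.22, SE 0.37, adjusted p = 0.0244) and not in Foxa2-/- cells (log2 change 0.23, SE 0.30, adjusted p = 0.532); the difference between these changes was not called (log2 difference -0.99, SE 0.47, adjusted p = 0.315). For the other 9 sterol enzymes the log2 change at day 1 was positive in both genotypes.

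Among the regulators, Insig1, which keeps SCAP in the endoplasmic reticulum and is itself an SREBP target, peaked at day 1. It was at 42.9, 44.7 and 43.8, then 113, 109 and 105, then 56.3, 57.3 and 57.5 FPKM in Foxa2-/- cells. WT cells had 35.1 and 39.2, then 126.4 and 117, then 68.7 and 64.6 FPKM. The 3 times did not overlap in either genotype, and the day 1 change was 1.29 (SE 0.09, adjusted p = 1.22e-06) in Foxa2-/- cells and 1.69 (SE 0.11, adjusted p = 2.81e-06) in WT cells. Srebf1, whose product drives mainly fatty acid genes, varied widely between libraries of a group, at 31.6, 9.22 and 24.6, then 85.4, 112 and 112, then 37.1, 60.6 and 42.8 FPKM in Foxa2-/- cells. WT cells had 30.2 and 11.4, then 34.8 and 86.1, then 60.8 and 95.0 FPKM. Its day 1 change was 2.34 (SE 0.48, adjusted p = 0.00248) in Foxa2-/- cells and its day 2 change 1.97 (SE 0.59, adjusted p = 0.0227) in WT cells, both called, whereas the Foxa2-/- change at day 2 was not (log2 change 1.20, SE 0.48, adjusted p = 0.0526). Insig2, which does the same work as Insig1, was called at neither time in either genotype.

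The transport genes did not move as a block. Stard4, which carries cholesterol between membranes, was at 17.8, 19.1 and 18.3, then 50.4, 46.7 and 44.3, then 14.9, 33.1 and 20.7 FPKM in Foxa2-/- cells. WT cells had 20.0 and 18.5, then 45.6 and 39.1, then 33.5 and 31.7 FPKM. The log2 change at day 1 was 1.31 (SE 0.21, adjusted p = 0.000554) in Foxa2-/- cells and 1.09 (SE 0.26, adjusted p = 0.0133) in WT cells. The exporter Abca1 was low throughout, at 1.62, 2.40 and 1.55, then 1.03, 0.737 and 0.886, then 0.338, 1.12 and 0.465 FPKM in Foxa2-/- cells. WT cells had 1.501 and 1.56, then 1.72 and 1.18, then 1.38 and 1.90 FPKM. It fell in Foxa2-/- cells at day 2 (log2 change -0.82, SE 0.18, adjusted p = 0.00358), where all 3 libraries were under all 3 ES libraries, and its change in WT cells was 0.06 (SE 0.23, adjusted p = 0.882). Abcg1, the exporter that loads cholesterol on lipoproteins, reached FPKM 1 only in day 1 libraries among those up to day 2. It passed the filter on low values through that group, so its higher level there is a description.

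The fatty acid genes held the largest rises in WT cells. Scd1 and Scd2, which put the first double bond into saturated fatty acids, stood at different levels, and both rose. Scd1 was at 17.1, 16.5 and 17.5, then 149, 136.6 and 139.99, then 54.3, 95.0 and 73.2 FPKM in Foxa2-/- cells. WT cells had 16.0 and 14.9, then 169 and 161, then 97.7 and 100.4 FPKM. Its day 1 change was 2.98 (SE 0.16, adjusted p = 2.57e-07) in Foxa2-/- cells and 3.33 (SE 0.20, adjusted p = 1.8e-06) in WT cells, and neither later time overlapped ES cells. Scd2, the most abundant of the fatty acid genes from day 1 on, was at 80.3, 71.0 and 79.3, then 570.2, 527.9 and 551, then 300.4, 492 and 383 FPKM in Foxa2-/- cells. WT cells had 95.4 and 86.3, then 522.5 and 568, then 536.2 and 552 FPKM. Its day 1 change was 2.82 (SE 0.15, adjusted p = 2.57e-07) in Foxa2-/- cells and 2.57 (SE 0.19, adjusted p = 9.85e-06) in WT cells.

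The desaturases of polyunsaturated fatty acids followed. Fads1 was at 20.1, 18.1 and 19.5, then 76.6, 69.3 and 67.7, then 84.4, 91.8 and 104 FPKM in Foxa2-/- cells. WT cells had 18.9 and 17.2, then 63.0 and 64.2, then 94.3 and 89.9 FPKM. Unlike Scd1, each day 2 library was above each day 1 library of its genotype, with a log2 change of 2.22 (SE 0.10, adjusted p = 2.34e-08) in Foxa2-/- cells and 2.29 (SE 0.13, adjusted p = 2.17e-07) in WT cells. Fads2 was at 31.7, 28.8 and 31.7, then 139.4, 136.8 and 135.8, then 86.3, 136.5 and 142 FPKM in Foxa2-/- cells. WT cells had 32.4 and 20.8, then 92.1 and 113, then 142 and 142 FPKM. The log2 changes at day 2 were 1.92 (SE 0.20, adjusted p = 1.09e-05) in Foxa2-/- cells and 2.41 (SE 0.24, adjusted p = 1.69e-05) in WT cells.

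Fatty acid synthase (Fasn), the enzyme that builds palmitate, was called in Foxa2-/- cells and missed the threshold in WT cells. It was at 47.1, 12.9 and 35.2, then 124.8, 148 and 169, then 295, 91.2 and 165 FPKM in Foxa2-/- cells. WT cells had 57.0 and 15.8, then 29.3 and 103, then 108 and 137.4 FPKM. The day 2 change was 2.52 (SE 0.62, adjusted p = 0.00586) in Foxa2-/- cells and 1.97 (SE 0.76, adjusted p = 0.0669) in WT cells, and the difference between them was 0.55 (SE 0.98, adjusted p = 0.769). Without Foxa2-/- day 2 replicates 1 and 3, which leaves 1 library in that group, Fasn was not called at day 2 in Foxa2-/- cells either. Fasn is one of the GC-rich transcripts, and its lowest values lie in the libraries with the steepest negative GC slopes. Elovl6, which lengthens palmitate, and Lpin1, a phosphatidate phosphatase on the way to triglycerides, went the other way at day 2 in Foxa2-/- cells. Elovl6 was at 33.7, 39.6 and 37.9, then 49.8, 45.2 and 44.6, then 19.2, 35.0 and 26.7 FPKM in Foxa2-/- cells. WT cells had 34.2 and 43.4, then 69.3 and 59.4, then 36.3 and 36.6 FPKM. Elovl6 fell by 0.48 on the log2 scale at day 2 in Foxa2-/- cells (SE 0.18, adjusted p = 0.0426) although replicate 2 lay within the ES range. Lpin1, the least abundant of the fatty acid and lipid genes, was at 4.34, 3.001 and 4.34, then 6.84, 7.07 and 7.10, then 1.54, 2.89 and 2.60 FPKM in Foxa2-/- cells. WT cells had 4.13 and 2.95, then 4.19 and 5.38, then 4.34 and 3.52 FPKM. The log2 change at day 2 was -0.56 (SE 0.19, adjusted p = 0.0253) in Foxa2-/- cells. In the same fit without Foxa2-/- day 2 replicates 1 and 3, neither Elovl6, Lpin1 nor Abca1 was called. The median log2 change of the 33 genes at day 2 was 0.92 in it, beside 0.91 with all libraries. With the GC trend removed from every library, Elovl6 was no longer called and Lpin1 and Abca1 were.

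Between the genotypes, 0 of the 33 genes were called in ES cells, at day 1 or at day 2 by limma. Of all genes, 0.377% were called in ES cells (0.079% higher, 0.298% lower), 1.88% at day 1 (1.2% higher, 0.68% lower) and 5.31% at day 2 (1.6% higher, 3.72% lower). At an unadjusted p under 0.05 there were 1, 10 and 13 of the 33 genes. The largest log2 difference at day 2 was that of Scap, which carries SREBP out of the endoplasmic reticulum, at 17.5, 33.2 and 18.3 FPKM in Foxa2-/- cells against 43.7 and 47.1 FPKM in WT cells (log2 difference -1.01, SE 0.40, adjusted p = 0.123). The groups did not overlap, and Scap is GC-rich. Abca1 came closest to the threshold, at 0.338, 1.12 and 0.465 FPKM in Foxa2-/- cells against 1.38 and 1.90 FPKM in WT cells (log2 difference -0.71, SE 0.21, adjusted p = 0.0637), and passed it with the GC trend removed. The count at day 2 rested on 1 library. Without Foxa2-/- day 2 replicate 2, limma called 4 genes higher (Acat2, Fdps, Fdft1 and Ebp) and 13 lower, among them Hmgcs1, Cyp51, Dhcr7, Scap, Stard4, Scd1 and Abca1. These 17 were 51.5% of the 33 genes, while 36.7% of all genes were called. Without replicates 1 and 3, which leaves 1 Foxa2-/- library of day 2, the median log2 difference of the 33 genes was -0.06, beside -0.22 with all libraries. The difference between the genotypes in the day 2 change was called for 0 of the 33 genes (1.01% of all genes, 0.261% higher and 0.747% lower; 7 of the 33 at an unadjusted p under 0.05) and for 12 (36.4%) without replicate 2, where 24.2% of all genes were called.

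In the sorted progenitors, many sterol and fatty acid genes went down with time, and more of them passed the test in WT cells. At day 7.5 against day 3.5, 2 of the 33 genes rose and 3 fell in Foxa2-/- cells, where 32.1% of all 17124 tested genes were called, 18.7% upward and 13.4% downward. In WT cells 4 rose and 19 fell, with 46.8% of all genes called, 24.5% upward and 22.4% downward. The 4 include Abcg1, which passed the filter on low values through later WT libraries alone, and 3 of the other 32 genes rose. The median log2 change of the 33 genes was -0.24 in Foxa2-/- cells and -0.91 in WT cells, beside 0.07 and 0.03 over all genes. Of the 15 sterol enzymes, 2 fell in Foxa2-/- cells and 12 in WT cells. A different number of calls does not by itself show a difference between the genotypes, and Foxa2-/- cells had 2 libraries at day 7.5 against 3 of WT cells. The difference of the changes was therefore tested directly: it was called for 2 of the 33 genes, Cyp51 and Acly, where 7.42% of all genes were called, 3.71% with the higher value in Foxa2-/- cells, and 14 of the 33 had an unadjusted p under 0.05. The 2 genes are 6.1% of the 33, both with the higher value in Foxa2-/- cells, a share between the 3.71% of all genes in that direction and the 7.42% in either. The difference was positive in 27 of the 33 genes, and its median was 0.76 beside 0.05 over all genes. Over the same interval the summed markers of neural progenitors were 1322 to 1388 FPKM at day 7.5 and 494 to 567 FPKM at day 3.5 in Foxa2-/- cells, and 767 to 1036 FPKM and 427 to 566 FPKM in WT cells. Those of endoderm were 14.6 to 40.2 FPKM at day 7.5 and 0.337 to 5.40 FPKM at day 3.5 in Foxa2-/- cells, and 11.2 to 53.7 FPKM and 0.642 to 1.199 FPKM in WT cells. Those of neurons were 166 to 295 FPKM at day 7.5 and 57.3 to 81.0 FPKM at day 3.5 in Foxa2-/- cells, and 118 to 163 FPKM and 112 to 167 FPKM in WT cells. The part of these cells in the change of the 33 genes was not tested.

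**Figure D2:**
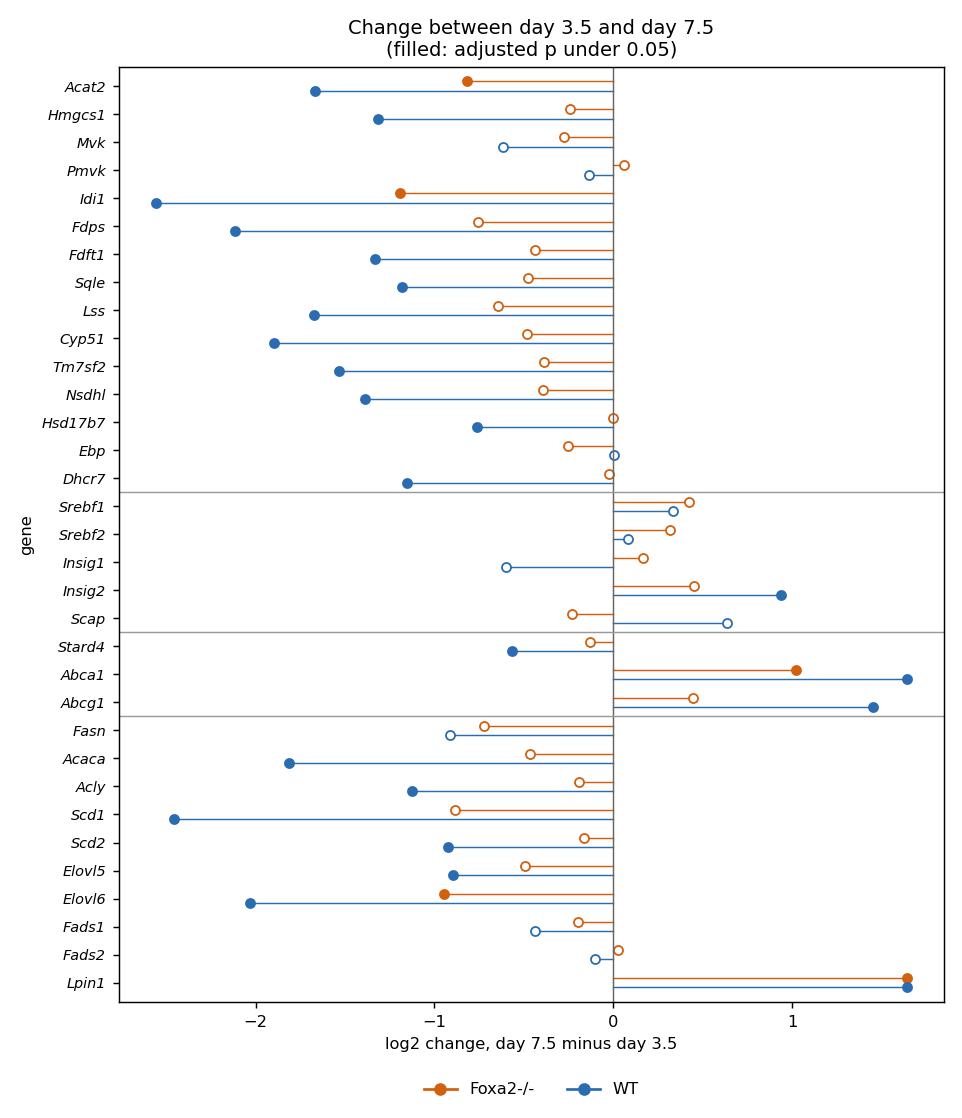
Log2 change, day 7.5 minus day 3.5 (x axis) of each of the 33 genes (y axis, grouped by role), with Foxa2-/- in orange above WT in blue and filled points for an adjusted p under 0.05. Most sterol enzymes lie further left in WT cells than in Foxa2-/- cells, with 12 filled WT points and 2 filled Foxa2-/- points among the 15, while Lpin1 has the same change of 1.64 in both.

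Cyp51 encodes the demethylase that acts on lanosterol. At days 3.5, 4.5, 5.5, 6.5 and 7.5 it was at 134.3, 102 and 99.6, then 114, 118 and 120.1, then 112, 105 and 99.1, then 124 and 134.6, then 74.6 and 83.7 FPKM in Foxa2-/- cells. In WT cells it was at 132, 132.9 and 137.4, then 111, 131 and 142, then 45.7, 148 and 150.3, then 84.2, 83.2 and 81.0, then 46.5, 27.8 and 33.9 FPKM. The genotypes overlapped up to day 5.5 and separated at days 6.5 and 7.5, where every Foxa2-/- library was above every WT library. The overlap at day 5.5 rested on WT replicate 1 alone, and WT replicates 2 and 3 were above every Foxa2-/- library of that day. Without replicate 1, Cyp51 was called lower in Foxa2-/- cells at day 5.5. The change from day 3.5 to day 7.5 was -0.48 (SE 0.32, adjusted p = 0.256) in Foxa2-/- cells and -1.90 (SE 0.28, adjusted p = 1.61e-05) in WT cells, and the difference between them was 1.41 (SE 0.42, adjusted p = 0.0464).

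Acly, the ATP citrate lyase that supplies acetyl-CoA to both sterol and fatty acid synthesis, was at 232, 217 and 179.6, then 226, 233 and 223, then 228, 203 and 240.1, then 207 and 244, then 180.3 and 184 FPKM in Foxa2-/- cells of days 3.5, 4.5, 5.5, 6.5 and 7.5. In WT cells it was at 206, 220.2 and 225, then 166, 215 and 199.95, then 111, 215 and 251, then 139.1, 135.2 and 153, then 105, 94.6 and 96.6 FPKM. Its level stayed within a narrow range in Foxa2-/- cells, and all WT libraries of days 6.5 and 7.5 lay under all Foxa2-/- libraries. The change was -0.19 (SE 0.21, adjusted p = 0.521) in Foxa2-/- cells and -1.13 (SE 0.19, adjusted p = 5.83e-05) in WT cells, with a difference of 0.94 (SE 0.28, adjusted p = 0.0489). Both adjusted p-values were near the threshold. The count of 2 was 0 without WT day 3.5 replicate 1, 2 or 3 or WT day 7.5 replicate 2 or 3. The same held without Foxa2-/- day 3.5 replicate 2, and in these fits 5.02% to 6.13% of all genes were called, against 7.42%. Without Foxa2-/- day 7.5 replicate 1 or 2, which leaves 1 library in that group, the count was lower as well. It was 1 without Foxa2-/- day 3.5 replicate 3, 4 without WT day 7.5 replicate 1 (6.67% of all genes called) and 12 (36.4% of the 33, beside 8.71% of all genes) without WT day 5.5 replicate 1. That last library belongs to neither time, so leaving it out changed no log2 difference; it entered only through the spread shared by all groups.

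Further sterol enzymes with the largest falls in WT cells were Idi1, Fdps, Lss and Acat2. Idi1, which interconverts the isoprenoid building blocks, was at 138.8, 112 and 130.5, then 123, 106 and 110.1, then 115, 85.3 and 71.2, then 128.8 and 76.2, then 71.5 and 42.0 FPKM in Foxa2-/- cells of days 3.5, 4.5, 5.5, 6.5 and 7.5. In WT cells Idi1 was at 138.9, 132 and 142, then 90.5, 119 and 134.3, then 33.4, 103 and 96.4, then 58.7, 57.6 and 45.7, then 35.4, 15.5 and 20.9 FPKM. It fell in both genotypes, by 1.19 on the log2 scale in Foxa2-/- cells (SE 0.38, adjusted p = 0.0203) and by 2.56 in WT cells (SE 0.34, adjusted p = 3.8e-06), and at day 7.5 the lower Foxa2-/- library was still above the highest WT library. Fdps, which makes farnesyl diphosphate, was at 64.0 and 42.1 FPKM at day 7.5 and 108, 81.2 and 78.7 FPKM at day 3.5 in Foxa2-/- cells (log2 change -0.76, SE 0.41, adjusted p = 0.162). WT cells had 39.9, 16.3 and 25.6 FPKM at day 7.5 and 106, 113 and 124.7 FPKM at day 3.5 (log2 change -2.12, SE 0.36, adjusted p = 7.09e-05).

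Lss was at 38.2 and 37.1 FPKM at day 7.5 and 68.9, 66.4 and 45.6 FPKM at day 3.5 in Foxa2-/- cells (log2 change -0.64, SE 0.38, adjusted p = 0.203). WT cells had 35.8, 13.9 and 21.5 FPKM at day 7.5 and 59.9, 71.0 and 91.2 FPKM at day 3.5 (log2 change -1.68, SE 0.34, adjusted p = 0.000376). Acat2, which condenses acetyl-CoA for the pathway, was at 85.0 and 61.1 FPKM at day 7.5 and 147, 119 and 119.8 FPKM at day 3.5 in Foxa2-/- cells (log2 change -0.82, SE 0.29, adjusted p = 0.0378). WT cells had 50.8, 33.3 and 39.4 FPKM at day 7.5 and 124, 125.97 and 145 FPKM at day 3.5 (log2 change -1.67, SE 0.26, adjusted p = 2.72e-05). Acat2 fell in both genotypes, and the 2 times did not overlap in either. Hmgcs1, still the most abundant sterol enzyme, was at 433 and 339.9 FPKM at day 7.5 and 477, 421 and 465 FPKM at day 3.5 in Foxa2-/- cells (log2 change -0.24, SE 0.36, adjusted p = 0.643). WT cells had 374, 143 and 219.7 FPKM at day 7.5 and 557, 528.9 and 624 FPKM at day 3.5 (log2 change -1.32, SE 0.32, adjusted p = 0.00194). Of the 15 sterol enzymes, Mvk, Pmvk and Ebp were called in neither genotype.

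Several fatty acid genes fell in WT cells as well. Scd1 was at 95.7, 76.3 and 76.5, then 80.3, 83.0 and 82.3, then 74.0, 46.2 and 52.2, then 81.6 and 66.7, then 46.9 and 41.6 FPKM in Foxa2-/- cells of days 3.5, 4.5, 5.5, 6.5 and 7.5. In WT cells Scd1 was at 88.1, 96.1 and 108, then 74.6, 82.4 and 91.0, then 20.4, 94.1 and 97.2, then 31.5, 27.9 and 23.0, then 29.2, 9.42 and 17.1 FPKM. At days 6.5 and 7.5 no WT library reached the lowest Foxa2-/- library, and the change was -0.88 (SE 0.45, adjusted p = 0.139) in Foxa2-/- cells and -2.46 (SE 0.40, adjusted p = 4.29e-05) in WT cells, with a difference of 1.57 (SE 0.60, adjusted p = 0.125). Elovl6 was at 20.9 and 14.0 FPKM at day 7.5 and 35.6, 31.4 and 35.0 FPKM at day 3.5 in Foxa2-/- cells (log2 change -0.95, SE 0.32, adjusted p = 0.0291). WT cells had 11.3, 6.21 and 8.33 FPKM at day 7.5 and 40.0, 37.2 and 35.1 FPKM at day 3.5 (log2 change -2.03, SE 0.29, adjusted p = 8.82e-06). It fell in both genotypes with no overlap of the 2 times. Acaca, the acetyl-CoA carboxylase that commits acetyl-CoA to fatty acids, was at 13.7 and 18.6 FPKM at day 7.5 and 18.5, 18.6 and 32.6 FPKM at day 3.5 in Foxa2-/- cells (log2 change -0.47, SE 0.35, adjusted p = 0.331). WT cells had 7.68, 6.85 and 5.50 FPKM at day 7.5 and 38.3, 20.7 and 21.6 FPKM at day 3.5 (log2 change -1.81, SE 0.31, adjusted p = 7.89e-05). In Foxa2-/- cells the times overlapped for Acaca, and in WT cells they did not.

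Against this trend, Lpin1, Abca1 and Insig2 rose in WT cells, and Lpin1 and Abca1 in Foxa2-/- cells. Lpin1 rose in both, to 7.08 and 12.1 FPKM at day 7.5, against 1.55, 3.13 and 2.39 FPKM at day 3.5, in Foxa2-/- cells (log2 change 1.64, SE 0.26, adjusted p = 0.000126) and to 8.87, 14.8 and 14.0 FPKM, against 2.45, 3.15 and 4.36 FPKM, in WT cells (log2 change 1.64, SE 0.23, adjusted p = 9.91e-06). Abca1 was at 2.80 and 6.62 FPKM at day 7.5 and 1.15, 1.71 and 2.197 FPKM at day 3.5 in Foxa2-/- cells (log2 change 1.02, SE 0.39, adjusted p = 0.0495). WT cells had 3.55, 12.3 and 9.49 FPKM at day 7.5 and 2.28, 1.89 and 1.20 FPKM at day 3.5 (log2 change 1.64, SE 0.35, adjusted p = 0.000595). Neither gene overlapped between the times in either genotype. Insig2 rose in WT cells, where it was at 31.8, 40.4 and 32.6 FPKM at day 7.5 and 20.1, 22.8 and 12.0 FPKM at day 3.5 (log2 change 0.94, SE 0.26, adjusted p = 0.00485), and it was at 25.9 and 19.1 FPKM at day 7.5 and 15.0, 23.6 and 11.4 FPKM at day 3.5 in Foxa2-/- cells (log2 change 0.45, SE 0.29, adjusted p = 0.238). Srebf1, Srebf2 and Scap, which encode the machinery that switches the pathway on, were called in neither genotype, with log2 changes of 0.42, 0.32 and -0.23 in Foxa2-/- cells and 0.33, 0.08 and 0.63 in WT cells. The count of calls in Foxa2-/- cells was small and rested on single libraries. In place of 5, beside 32.1% of all genes, it was 1 without Foxa2-/- day 3.5 replicate 1, beside 25.9%. Without day 3.5 replicate 2 or 3 it was 3, beside 28.2% and 28.4% of all genes. Without WT day 5.5 replicate 1 it was 9 (1 higher, 8 lower, 32.8% of all genes called). It was lower without Foxa2-/- day 7.5 replicate 2, which leaves 1 library in that group. When only the groups compared were fitted it was 0, beside 3.85% of all genes.

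Read day by day and leaving out Abcg1, the genes called between Foxa2-/- and WT cells appeared from day 6.5 on with all libraries in the fit. At days 3.5 and 4.5, 0 of the 33 genes were called by limma, beside 3.38% of all genes at day 3.5 (0.677% higher, 2.7% lower) and 7.5% at day 4.5 (1.69% higher, 5.82% lower), and 1 of the 33 had an unadjusted p under 0.05 on each day. At day 3.5 the log2 difference was negative in 32 of the 33 genes, with a median of -0.24 beside -0.011 over all genes. At day 5.5 the 1 gene called was Abcg1, which passed the filter on low values through WT libraries alone, beside 14.3% of all genes, 9.73% lower. At day 6.5, 3 genes were higher (Scd1, Insig1 and Acly) and Abcg1 was lower in Foxa2-/- cells, 4 in all, beside 24.9% of all genes, 13.0% higher and 11.9% lower. At day 7.5, 7 were higher (Scd1, Idi1, Acaca, Cyp51, Elovl6, Acly and Acat2) and Abcg1 was lower, beside 25.8% of all genes, 13.6% higher and 12.1% lower. Leaving out Abcg1, 3 and 7 of the other 32 genes were called (9.4% and 21.9%), all of them higher. Of all genes, 13.0% and 13.6% were called higher and 24.9% and 25.8% in either direction. The share of the 32 genes was under both at day 6.5 and between them at day 7.5. That order rested on the libraries used: without WT day 5.5 replicate 1 the counts were 10 (31.2%, beside 25.7% of all genes) at day 6.5 and 13 (40.6%, beside 26.5%) at day 7.5, and without WT day 7.5 replicate 1 the count at day 7.5 was 12 (37.5%, beside 23.2%). The median log2 difference was 0.42 at day 6.5 and 0.43 at day 7.5, beside 0.07 and 0.04 over all genes, and positive in 27 and 22 of the 33 genes.

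**Figure D3:**
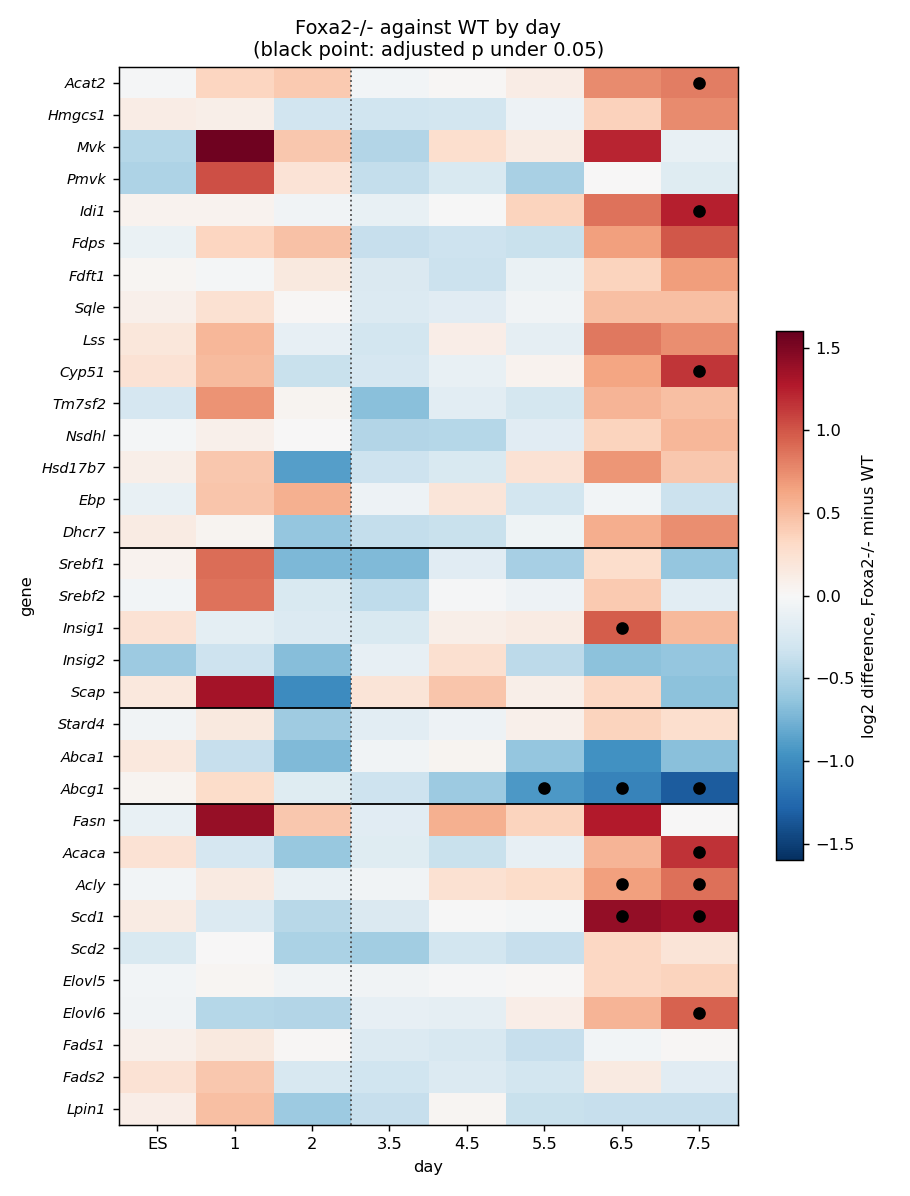
Difference in log2(FPKM + 1), Foxa2-/- minus WT (colour, red where Foxa2-/- is higher), of each gene (rows, grouped by role) on each day (columns; the dotted line separates the 2 tables), with a black point where the adjusted p was under 0.05. Points of genes other than Abcg1 appear from day 6.5 on. Abcg1, which passed the filter on low values through WT libraries alone, is the 1 gene marked lower, from day 5.5 on, and its points are a description. The sterol enzymes marked at day 7.5 are Acat2, Idi1 and Cyp51.

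At day 7.5, Scd1 was at 46.9 and 41.6 FPKM in Foxa2-/- cells against 29.2, 9.42 and 17.1 FPKM in WT cells (log2 difference 1.34, SE 0.45, adjusted p = 0.0322), after 81.6 and 66.7 FPKM against 31.5, 27.9 and 23.0 FPKM at day 6.5 (log2 difference 1.40, SE 0.45, adjusted p = 0.0262). Idi1 was at 71.5 and 42.0 FPKM in Foxa2-/- cells against 35.4, 15.5 and 20.9 FPKM in WT cells (log2 difference 1.24, SE 0.38, adjusted p = 0.0185). The genotypes did not overlap for either gene. Acaca was at 13.7 and 18.6 FPKM in Foxa2-/- cells against 7.68, 6.85 and 5.50 FPKM in WT cells (log2 difference 1.15, SE 0.35, adjusted p = 0.0192), and Cyp51 at 74.6 and 83.7 FPKM against 46.5, 27.8 and 33.9 FPKM (log2 difference 1.14, SE 0.32, adjusted p = 0.0108). Elovl6 was at 20.9 and 14.0 FPKM in Foxa2-/- cells against 11.3, 6.21 and 8.33 FPKM in WT cells (log2 difference 0.95, SE 0.32, adjusted p = 0.0338). These 3 did not overlap between the genotypes either, which is a description, as the genes were chosen by the test on the same values. Acly was at 180.3 and 184 FPKM in Foxa2-/- cells against 105, 94.6 and 96.6 FPKM in WT cells at day 7.5 (log2 difference 0.88, SE 0.21, adjusted p = 0.00427) and at 207 and 244 FPKM against 139.1, 135.2 and 153 FPKM at day 6.5 (log2 difference 0.66, SE 0.21, adjusted p = 0.0279). Acat2 was at 85.0 and 61.1 FPKM in Foxa2-/- cells against 50.8, 33.3 and 39.4 FPKM in WT cells (log2 difference 0.81, SE 0.29, adjusted p = 0.0454), also with no overlap.

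Insig1 was the regulator called, at 101 and 105 FPKM in Foxa2-/- cells of day 6.5 against 69.8, 49.8 and 40.2 FPKM in WT cells (log2 difference 0.97, SE 0.30, adjusted p = 0.0211). At day 7.5 it was at 71.6 and 74.2 FPKM against 48.9, 42.9 and 61.4 FPKM (log2 difference 0.52, SE 0.30, adjusted p = 0.222), again with every Foxa2-/- library above every WT library though without a call. For Fasn, one of the GC-rich transcripts, the 2 Foxa2-/- libraries of day 7.5 were at 21.4 and 58.5 FPKM, on either side of the WT libraries at 33.3, 36.5 and 36.6 FPKM.

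Abcg1 went the other way on each of the last 3 days. At days 3.5, 4.5, 5.5, 6.5 and 7.5 it was at 0.147, 0.176 and 0.116, then 0.242, 0.195 and 0.212, then 0.223, 0.193 and 0.265, then 0.209 and 0.467, then 0.362 and 0.793 FPKM in Foxa2-/- cells. In WT cells it was at 0.5998, 0.435 and 0.299, then 0.887, 1.04 and 0.548, then 1.42, 1.25 and 1.31, then 2.03, 1.30 and 2.095, then 1.14, 4.67 and 4.01 FPKM. Every WT library was above every Foxa2-/- library of its day on all 5 days, and the log2 difference was -0.92 at day 5.5, -1.06 at day 6.5 and -1.33 at day 7.5. No Foxa2-/- library reached 1 FPKM, so these differences are a description with no test. Abca1 was at 1.92 and 3.18 FPKM in Foxa2-/- cells of day 6.5 against 5.05, 6.56 and 5.92 FPKM in WT cells (log2 difference -0.97, SE 0.39, adjusted p = 0.075), and at 2.80 and 6.62 FPKM against 3.55, 12.3 and 9.49 FPKM at day 7.5 (log2 difference -0.67, SE 0.39, adjusted p = 0.226). It did not pass the test on either day.

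Markers of some other cell types also differed between the genotypes on these days. Markers of mesoderm and smooth muscle (6 of 6 measured, led by Tagln and Acta2) summed to 5.01 to 14.7 FPKM in Foxa2-/- cells against 61.6 to 86.7 FPKM in WT cells of day 6.5, and to 8.78 to 9.23 FPKM against 127.6 to 264 FPKM at day 7.5. They were already apart at day 4.5, at 12.1 to 21.6 FPKM in Foxa2-/- cells against 66.3 to 175 FPKM in WT cells, and at day 5.5, at 4.47 to 8.07 FPKM against 26.5 to 144 FPKM. Markers of neurons (5 of 6 measured) summed to 166 to 295 FPKM in Foxa2-/- cells of day 7.5 against 118 to 163 FPKM in WT cells. At day 6.5 they overlapped, at 158 to 208 FPKM in Foxa2-/- cells against 170 to 427 FPKM in WT cells. Markers of ES cells (6 of 6) summed to 8.23 to 23.4 FPKM against 2.32 to 3.05 FPKM at day 7.5, and to 7.71 to 23.1 FPKM against 0.450 to 0.887 FPKM at day 6.5. Those of oligodendrocyte precursors (4 of 4) overlapped between the genotypes at day 7.5, at 10.4 to 34.7 FPKM against 3.30 to 13.8 FPKM. They were apart at day 6.5, at 6.77 to 17.0 FPKM against 1.67 to 3.97 FPKM. Those of endoderm (5 of 5) overlapped on both days. The part of these cells in the differences between the genotypes was not tested. The counts of calls also depended on single libraries. At day 7.5 the count of 8, which includes Abcg1, stood beside 25.8% of all genes. This count was 13 without WT day 7.5 replicate 1, beside 23.2% of all genes. Without WT day 7.5 replicate 2 or 3 it was 3, beside 20.7% and 19.3% of all genes. It was lower too without Foxa2-/- day 7.5 replicate 1, which leaves 1 library in that group. When only the groups compared were fitted it was 2 (Acaca and Acly), and the share of all genes fell as well, to 11.8%. At day 6.5 the count of 4, which also includes Abcg1, stood beside 24.9% of all genes. This count was 1 without WT day 6.5 replicate 2, beside 17.8% of all genes, and 2 without WT day 6.5 replicate 3, beside 20.7%. It was lower too without Foxa2-/- day 6.5 replicate 2, which leaves 1 library in that group. When only the groups compared were fitted it was 1 (Scd1), and the share of all genes fell as well, to 3.74%.

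The WT library of day 5.5 replicate 1 was low in most sterol and fatty acid genes. Of the 33 genes, 28 were lower in it than in both replicates 2 and 3, and 19 (57.6%) were lower by at least 1 on the log2 scale than the mean of those 2, among them 11 of the 15 sterol enzymes and 7 of the 10 fatty acid and lipid genes. Of all 17124 tested genes, 634 (3.7%) were that much lower. The median log2 difference of the 33 genes was -1.28, beside 0.001 over all genes, while replicates 2 and 3 differed from each other by at most 0.43 in any of the 33. Hmgcs1 was at 241, 718 and 716 FPKM in replicates 1, 2 and 3, Scd1 at 20.4, 94.1 and 97.2 FPKM, Fdps at 31.5, 118 and 124 FPKM and Insig1 at 29.2, 83.7 and 79.7 FPKM. Lpin1, Insig2, Scap and Abcg1 were higher in replicate 1 than in both others, at 6.31, 4.62 and 5.22 FPKM for Lpin1 and 26.8, 19.9 and 22.5 FPKM for Insig2.

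**Figure D4:**
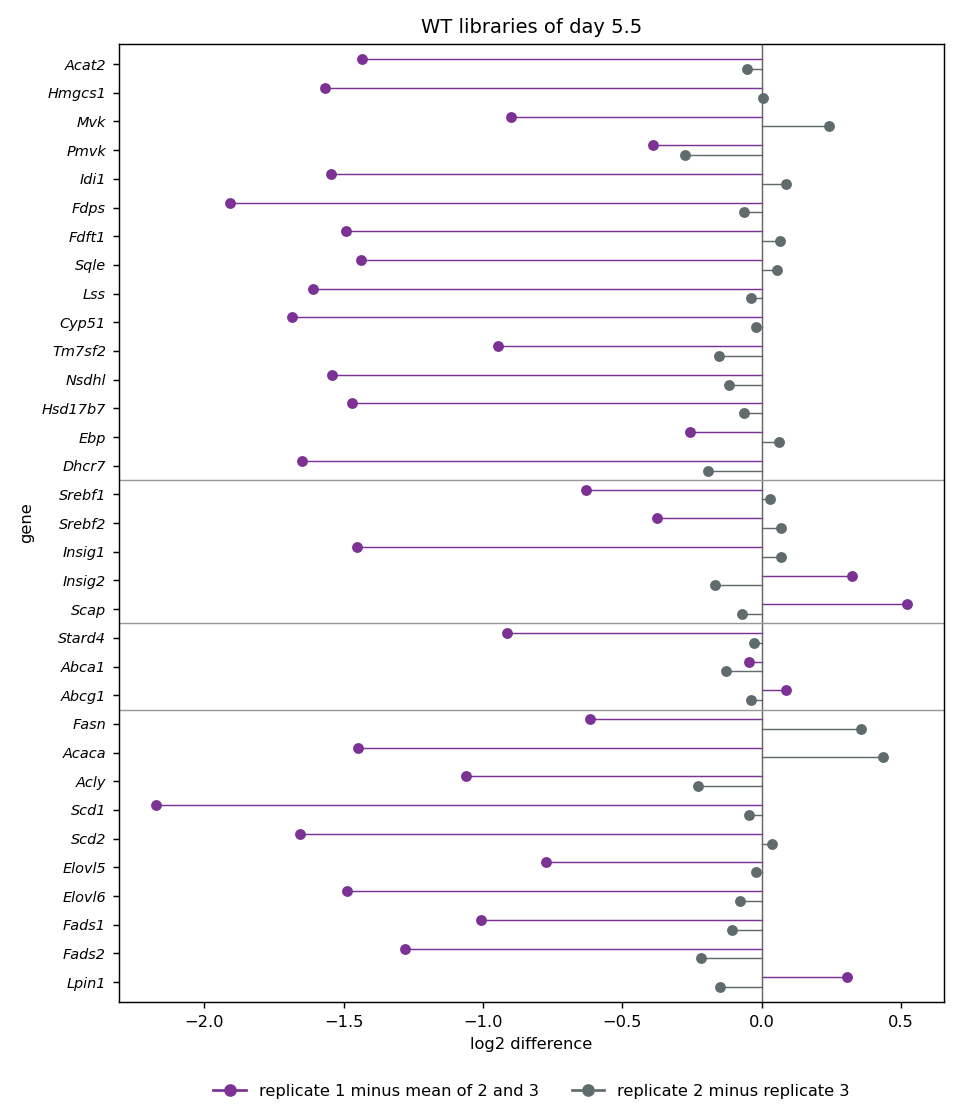
Log2 difference (x axis) of each gene (y axis, grouped by role) between WT day 5.5 replicate 1 and the mean of replicates 2 and 3 (purple) and between replicates 2 and 3 (grey). Most sterol and fatty acid genes lie at or beyond -1 in purple, with a median of -1.28 over the 33 genes, while the grey points stay within 0.43 of 0.

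Across the 33 genes, the deviation of this library correlated with the WT change between day 3.5 and day 7.5 (Pearson r = 0.877, against 0.255 across all tested genes); genes share the same libraries, so this is a description. The library was the deepest from day 3.5 on, at 31200000 estimated fragments against 14200000 and 13500000 in replicates 2 and 3, and its correlation with them over all genes was 0.940 and 0.941. Its markers of mesoderm and smooth muscle summed to 144 FPKM against 27.3 and 26.5 FPKM in replicates 2 and 3, those of neural progenitors to 622 FPKM against 995 and 1025 FPKM, and those of neurons to 84.3 FPKM against 305 and 317 FPKM; their part in its low lipid genes was not tested. Without it, Fdps, Fdft1, Sqle, Cyp51, Nsdhl, Scd2, Fads1 and Fads2 were called lower in Foxa2-/- cells than in WT cells at day 5.5. With all libraries in the fit none of them was called. Abcg1, which passed the filter on low values through WT libraries alone, makes these 9 of the 33 genes (27.3%, beside 11.8% of all genes). The same omission raised the count of genes other than Abcg1 to 10 at day 6.5, beside 25.7% of all genes, and to 13 at day 7.5, beside 26.5%. All of these were higher in Foxa2-/- cells, and the counts moved through the shared spread.

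The Nkx2.2 arm holds a single library in each group, which allows no test, and a gene was counted where log2(FPKM + 1) differed by at least 1. Hmgcs1 appeared there only under other gene identifiers than in the Foxa2 arm, and these were at 0 in all 4 libraries. Its level in this arm is therefore not known, and 32 genes are described. Between Nkx2.2-/- and WT cells, 0 of the 32 genes differed that much at day 3.5 or at day 5.5, where 4.53% and 4.33% of all 15016 genes did. Between day 5.5 and day 3.5, 5 genes were lower in Nkx2.2-/- cells (Lss, Scd1, Fasn, Dhcr7 and Fdps) and 3 in WT cells (Acaca, Lss and Fasn), where 1.94% and 2.59% of all genes were. All 14 sterol enzymes had a negative difference in both genotypes, and so did 28 of the 32 genes in each. The median was -0.71 in Nkx2.2-/- cells and -0.43 in WT cells, beside 0.03 and 0.02 over all genes.

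**Figure D5:**
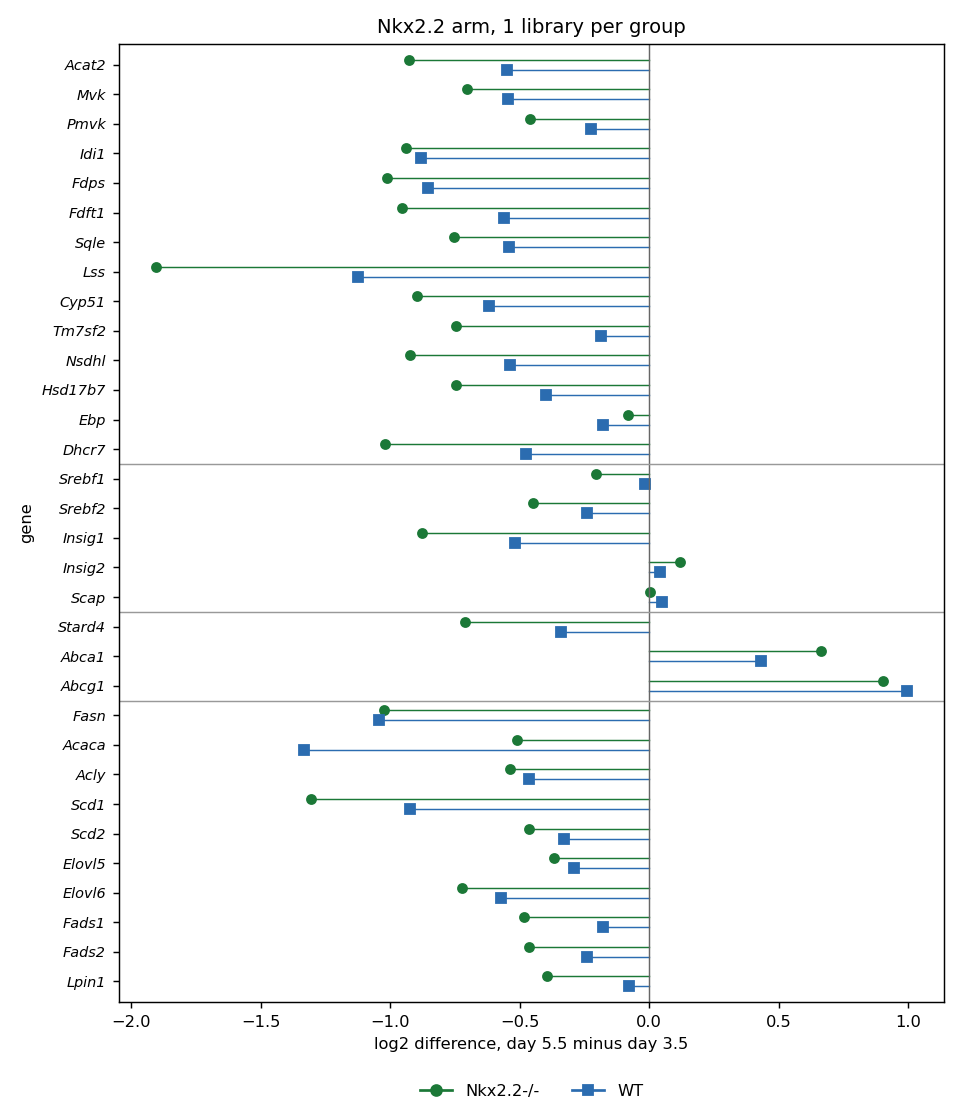
Log2 difference between day 5.5 and day 3.5 (x axis) of 32 genes (y axis, grouped by role) in the Nkx2.2 arm, with Nkx2.2-/- as green circles above WT as blue squares, 1 library per group. All 14 sterol enzymes lie left of 0 in both, and Abca1 and Abcg1 lie right of 0.

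In Nkx2.2-/- cells Lss showed the largest difference, and in WT cells Acaca did. Lss was at 32.1 FPKM at day 5.5 and 123 FPKM at day 3.5 in Nkx2.2-/- cells, and at 35.0 FPKM at day 5.5 and 77.4 FPKM at day 3.5 in WT cells. Scd1 was at 37.4 FPKM at day 5.5 and 94.0 FPKM at day 3.5 in Nkx2.2-/- cells, and at 40.2 FPKM at day 5.5 and 77.1 FPKM at day 3.5 in WT cells. Abcg1 was higher at day 5.5 in both, at 1.46 FPKM against 0.315 FPKM at day 3.5 in Nkx2.2-/- cells and at 1.599 FPKM against 0.304 FPKM in WT cells. Markers of mesoderm and smooth muscle moved with time in these 4 libraries too, summing to 236 FPKM at day 5.5 and 1220 FPKM at day 3.5 in Nkx2.2-/- cells and to 329 FPKM at day 5.5 and 1225 FPKM at day 3.5 in WT cells, and their part was not tested.

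The levels of most of the genes followed that of Hmgcs1 over the groups, which share libraries and are few, so the correlations are descriptions. Over the 6 groups up to day 2, Pearson r of mean log2(FPKM + 1) with Hmgcs1 was highest for Scd1 (0.996) among the fatty acid genes, Idi1 (0.983) among the sterol enzymes and Srebf1 (0.956) among the regulators. Over the 10 groups from day 3.5 it was highest for Fdft1 (0.982) and Cyp51 (0.981) among the sterol enzymes, Elovl5 (0.910) among the fatty acid genes, Stard4 (0.897) among the transport genes and Insig1 (0.626) among the regulators. It was negative there for Abca1 (-0.807), Lpin1 (-0.793), Insig2 (-0.699), Abcg1 (-0.668), Scap (-0.296) and Srebf1 (-0.158). For Srebf2 it was 0.069.

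Of 28 other genes of sterol synthesis, uptake and handling, 26 were tested up to day 2: 14 rose and 1 fell at day 1 in Foxa2-/- cells, beside 32.2% and 12.2% of all genes, and 7 rose in WT cells, beside 10.8%. At day 2, 12 rose and 4 fell in Foxa2-/- cells (31.4% and 23.2% of all genes), and 13 rose in WT cells (19.1%). Between day 7.5 and day 3.5, with 25 tested, 7 rose and 1 fell in Foxa2-/- cells (18.7% and 13.4% of all genes), while 8 rose and 8 fell in WT cells (24.5% and 22.4%). Of 28 other genes of fatty acid and glycerolipid synthesis, 24 were tested up to day 2: 15 rose at day 1 in Foxa2-/- cells and 7 in WT cells, beside 32.2% and 10.8% of all genes. At day 2, 10 of these rose and 4 fell in Foxa2-/- cells (31.4% and 23.2% of all genes). In WT cells 9 rose and 1 fell (19.1% and 14.8%). Between day 7.5 and day 3.5, with 23 tested, 6 rose and 2 fell in Foxa2-/- cells, and 6 rose and 5 fell in WT cells, beside the same shares of all genes as for the sterol genes. At day 6.5, Foxa2-/- cells had 8 of the 25 other sterol genes higher and 3 lower than WT cells. Of the 23 other lipid genes, 1 was higher and 1 lower on that day, beside 13.0% higher and 11.9% lower over all genes. At day 7.5, 5 of the other sterol genes were higher and 3 lower in Foxa2-/- cells. Of the other lipid genes 5 were higher and 1 lower, beside 13.6% higher and 12.1% lower over all genes.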

How the data were processed

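Poly-A selected, stranded RNA sequencing of 47 libraries was used as FPKM values in 3 tables deposited by the authors. The submitters' processing notes list Cufflinks 2.1.1, HTSeq 0.6.1, TopHat2 2.0.4, CASAVA, bcl2fastq 1.8.3 and limma, with the build GRCm38 (mm10). Which tool made the FPKM values is not given in the sources used here. Another 3 columns match no library here and were not used. Values of exactly 0 may be failed estimates. FPKM carries no counts, so no counting intervals are given.

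The tables of the Foxa2 arm were fitted separately in R 4.3.3 with limma 3.58.1 (empirical Bayes with a mean-variance trend, a mean for each group, two-sided). Values entered as log2(FPKM + 1), and genes had to reach an FPKM of 1 in 2 or more libraries of a table. The fit was checked on simulated data. Tables and figures were made with Python 3.11.15, pandas 2.3.3, numpy 2.4.6 and matplotlib 3.10.9. Log2 changes on this scale understate the change of low genes. An adjusted p is Benjamini-Hochberg adjusted over all genes of the table. Values in every library are given for called genes, up to 8 per comparison and direction by size of change, and for the highest and lowest genes of a role. Statements that groups do or do not overlap are descriptions of these values. Called genes were chosen by the test on the same values, and the share of all genes without overlap was not counted. The genes, lists and tests were chosen with earlier results of these data known. The 2 libraries of the Nkx2.2 arm titled day 5.5 have a stage label of 3.5 days, and the titles were used, so comparisons between the days of that arm rest on the titles. The alternatives were another pseudocount, filter, scaling and set of libraries, isolated zeros set to missing, and a replicate block. Those added after the data were seen were removal of GC and length trends, omission of WT day 5.5 replicate 1 or Foxa2-/- day 2 replicates 1 and 3, and the comparisons of day 1 with ES cells.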

Additional observations from a re-analysis of the deposited data

Results flagged for a closer look

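Of the 33 genes, 2 changed differently in the genotypes between day 7.5 and day 3.5 by limma's test of the difference itself. They are 6.1% of the 33, beside 7.42% of all genes in either direction and 3.71% in the direction of these 2. For Cyp51 the Foxa2-/- change minus the WT change was 1.41 on the log2 scale (adjusted p = 0.0464, limma), from changes of -0.48 in Foxa2-/- cells and -1.90 in WT cells. For Acly the difference was 0.94 (adjusted p = 0.0489, limma), from changes of -0.19 in Foxa2-/- cells and -1.13 in WT cells. Both adjusted p-values lie near the threshold, and under 21 alternatives Cyp51 lost its call in 12 and Acly in 14.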

How the results depend on the processing

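No result changed direction under any alternative run. Of 144 pairs of a called gene and a comparison, 79 were called under every alternative, and of 2127 values under alternatives 247 lost their call. Counts of called genes moved by more than 1.5 times as follows, with the reported count in brackets. With the GC trend removed, which like removal of the length trend was chosen after the data were seen, Foxa2-/- against WT gave 1 (0) at day 2 and 2 (1) at day 5.5. With a pseudocount of 0.1, it gave 1 (0) at day 4.5, the difference of the late changes gave 0 (2), and Nkx2.2-/- against WT at day 5.5 gave 1 (0). With no filter, Foxa2-/- day 7.5 against day 3.5 gave 3 (5) and the difference of the late changes 0 (2). Median-of-ratios factors gave 0 and removal of the length trend 1 for that difference. Quantile normalisation gave 2 (4) at day 6.5 and 2 (5) for Foxa2-/- day 7.5 against day 3.5. Fitting only the groups compared gave 1 (23) for WT day 1 against ES, beside 0.0668% of all genes, and 1 (4) at day 6.5, beside 3.74%. It gave 2 (8) at day 7.5, beside 11.8% of all genes, and 0 (5) for Foxa2-/- day 7.5 against day 3.5, beside 3.85%. Leaving out 1 library at a time, counts ranged from 0 to 17 for Foxa2-/- against WT at day 2, 14 to 21 for WT day 2 and 15 to 19 for WT day 1 against ES, 0 to 12 for the difference of the day 2 changes, 1 to 9 at day 5.5, 1 to 11 at day 6.5, 3 to 14 at day 7.5, 1 to 9 for Foxa2-/- day 7.5 against day 3.5 and 0 to 12 for the difference of the late changes. The counts in this section include Abcg1 where it was called, and the cause of their movement was not tested. Where an omission left 1 library in a group, the pooled spread was used and that library was assumed to vary like the others. Libraries of the 2 genotypes shared replicate numbers only: their deviations from the group means correlated at -0.243 to 0.36, not all over 0.1. With the replicate block as a term, Foxa2-/- against WT gave 1, 5 and 7 at days 5.5, 6.5 and 7.5, WT day 7.5 against day 3.5 gave 23, and no count moved by over 1.5 times. Depth was only estimated, and its part in the values of low genes such as Abca1 and Abcg1 was not tested.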
